A study of Mus musculus with 4 samples.

Results

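Core components of the small nuclear ribonucleoproteins (snRNPs) of the major spliceosome were followed in NIH/3T3 cells, an immortalised line of mouse fibroblasts, after knockdown of *Setd2*, the methyltransferase that deposits H3K36me3 along transcribed genes. The members are 45 genes named by symbol, and every tested transcript with one of these symbols was used, which gave 79 transcripts of the 34200 tested and 45 genes of the 21945 tested. KD cells received 2 *Setd2* siRNAs and WT cells a Scrambled siRNA, both at 10 nM with Lipofectamine 3000, for 48 h. Polyadenylated RNA of 2 KD and 2 WT samples was sequenced in stranded libraries, and whether samples of a group came from separate transfections is not given in the sources used here, so the tests measure the spread between these samples, which may be technical. The knockdown was transient, and untransfected cells are not among the 4 samples.

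The spliceosome removes introns in steps. The U1 snRNP pairs with the 5′ splice site, SF1 binds the branch point and the U2AF heterodimer binds the polypyrimidine tract and the AG at the 3′ splice site, after which the U2 snRNP pairs with the branch point with the help of SF3A and SF3B. The preassembled U4/U6.U5 tri-snRNP then joins, and the Prp19 complex takes part in the activation that follows. The U1, U2, U4 and U5 RNAs carry a ring of Sm proteins, and U6 RNA carries a ring of the related LSm proteins. The snRNAs themselves are not polyadenylated, so the values below are those of the mRNAs that code for the proteins.

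Each value rests on the comparison in the authors' deposited table. Levels are group means in normalised estimated counts, the reads that Kallisto assigns to a transcript after scaling between libraries, and differences are log2(fold change) of KD over WT with the standard error (SE). A transcript was called when its q-value in Sleuth's likelihood ratio test, the p-value adjusted over all transcripts, was under 0.05. The values are those of groups, not of single libraries, whose depth is unknown, but the variance of each transcript bounds how far its libraries can lie from each other. By this bound the KD and WT libraries of a transcript can be shown not to overlap, shown to overlap, or neither. The sign of the effect was read from *Setd2*, so the direction of *Setd2* was set in advance and cannot check the labels. The level of *Setd2* was 923 in KD and 3680.4 in WT, 74.9% lower in KD. Its libraries did not overlap (log2(fold change) −1.99, SE 0.09, q = 0.0103). All 8 fibroblast markers were detected, with a summed level of 1113604 in KD and 1246847 in WT and members on both sides of 0, from −0.92 for *Col3a1* and −0.68 for both *Col1a1* and *Col1a2* to 0.49 for *Fn1* on the log2 scale. The summed levels of the epithelial, leukocyte and endothelial markers were between 57.3 and 409, with *Epcam* and *Krt18* not among the tested genes. Most of the leukocyte sum was *Cd68*, at 391 in KD and 303 in WT, while *Ptprc* was at 17.4 in KD and 52.0 in WT.

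The sequences that bear on the results are those in which the isoforms of 1 member differ and those just upstream of members that rose. *U2af1*, which codes for the small U2AF subunit, has 2 tested transcripts with the same number of codons, 239, and each carries 1 coding exon of 67 bases that the other lacks. Their annotated starts differ as well. The pair of exons was read from GENCODE M21 (GRCm38), and the capitals mark the 23 of 67 bases that differ, with the other 44 the same.
ENSMUST00000014684, exon at chr17:31651646-31651712 on the minus strand: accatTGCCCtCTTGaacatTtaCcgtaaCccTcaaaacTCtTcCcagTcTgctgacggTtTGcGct
ENSMUST00000166526, exon at chr17:31652502-31652568 on the minus strand: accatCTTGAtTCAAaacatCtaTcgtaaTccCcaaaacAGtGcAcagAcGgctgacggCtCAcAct

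For the promoters, RefSeq sequences (GRCm38.p6) were found for 35 of the 45 members, from 250 bases before to 50 after the start. The letters CCGGAAG, a core bound by ETS factors, were present on either strand in 15 of the 35 members (42.9%), against 9.93% of the 27025 genes with a promoter sequence. Those genes were not matched to the members in level, and the share among genes at the members' level was not computed. The letters CCGGAAG were present in 6 of the 12 called members with a sequence and in 9 of the 23 others, so the share was similar in called members and in those not called. Of the other letters searched on both strands, GGGCGGGG (GC box) was found in 25.7% of members and 19.6% of all genes, CCAAT in 42.9% and 41.1%, CACGTG (E-box) in 8.57% and 8.09%, AAGATGGC (YY1) in 5.71% and 3.19%, an NRF1 motif in 2.86% and 1.07%, and TATAAA in 5.71% and 15.7%. The searched letters do not contain each other. *Snrpc*, *Sf3b2* and *Snrnp200*, which rose, are shown with CCGGAAG in capitals, and *Snrpa*, whose isoforms differ in their start, with CACGTG in capitals. The stretches end just before the RefSeq start, except that for *Snrpc* and the inner start of *Snrpa*, where another transcript's exon lies over the same bases, only the bases around the match are shown.
Snrpc, chr17:27840037-27840065, plus strand: tagggcagaggCCGGAAGcggaagtccta
Sf3b2, chr19:5295456-5295555, minus strand: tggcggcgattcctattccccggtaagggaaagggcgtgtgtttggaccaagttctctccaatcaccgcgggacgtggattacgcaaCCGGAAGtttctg
Snrnp200, chr2:127208286-127208385, plus strand: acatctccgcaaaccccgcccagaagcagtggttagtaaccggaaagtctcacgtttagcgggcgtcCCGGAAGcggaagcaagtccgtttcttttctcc
Snrpa, outer start, chr7:27196272-27196371, minus strand: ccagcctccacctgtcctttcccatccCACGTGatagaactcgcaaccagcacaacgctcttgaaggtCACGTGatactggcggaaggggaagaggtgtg
Snrpa, inner start, chr7:27195812-27195841, minus strand: acgcctttcgcgCACGTGgactaatgggaa

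Of the 79 member transcripts, 18 were called, and all 18 were higher in KD. They belong to 17 of the 45 genes, and 0 member transcripts were called lower, where 3 of the 61 uncalled transcripts were lower with an unadjusted likelihood ratio p under 0.05. Other tests did call lower transcripts, 1 by the Wald test and 2 when q-values were recalculated without low counts, namely *Snrnp40* in both and *Sf3b1* in the second, and 0 by limma's moderated test. Among all transcripts tested, 12.5% were called, 7.26% higher and 5.21% lower. Among all genes, 10.1% had a transcript called higher and 7.43% had a transcript called lower. All 45 members had a summed level of at least 1000 counts, and among the genes at that level 23.4% had a transcript called higher, against 37.8% of members. Of the 8111 genes at that level, 1044 had a transcript called lower, against 0 of the 45 members. Of the member transcripts with at least 1000 counts, 18 of 55 (32.7%) were called higher, against 20.3% of all transcripts at that level. The members were chosen with earlier results of these data known, and no test over the list was made.

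The rises were modest in size. The 18 called transcripts had log2(fold changes) from 0.30 to 0.91 with a median of 0.49, and the spread within groups (pooled SD) was 0.04 to 0.16 on the log2 scale. The KD and WT libraries of all 18 did not overlap. The same was true of 46 of the 79 member transcripts (58.2%) and of 54.8% of all transcripts, and among transcripts with at least 1000 counts of 65.5% of members and 71.7% of all, so separation of the libraries was about as frequent in members as elsewhere. A q-value combined over the transcripts of a gene, which has no direction, was under 0.05 for 20 of the 45 genes (44.4%), against 24.0% of all genes and 49.3% of genes with at least 1000 counts. The 3 genes added by this rule were *Prpf8*, *Sart1* and *Lsm4*.

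On the summed level of a gene, 36 of the 45 genes were above 0 and 9 below, with a median log2(fold change) of 0.26, a lowest value of −0.28 and a highest of 0.91. For comparison, the median was −0.03 over all genes and 0.09 over genes with at least 1000 counts, of which 60.6% were above 0. The groups of members differed in their medians, from 0.42 for U2AF and SF1 and 0.39 for U1 to 0.13 for LSm and 0.11 for Sm, as the plot of all 45 genes by group shows. The SE of a summed level was computed as if the isoforms of a gene were independent, since their covariance is not in the table.

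**Figure D1:**
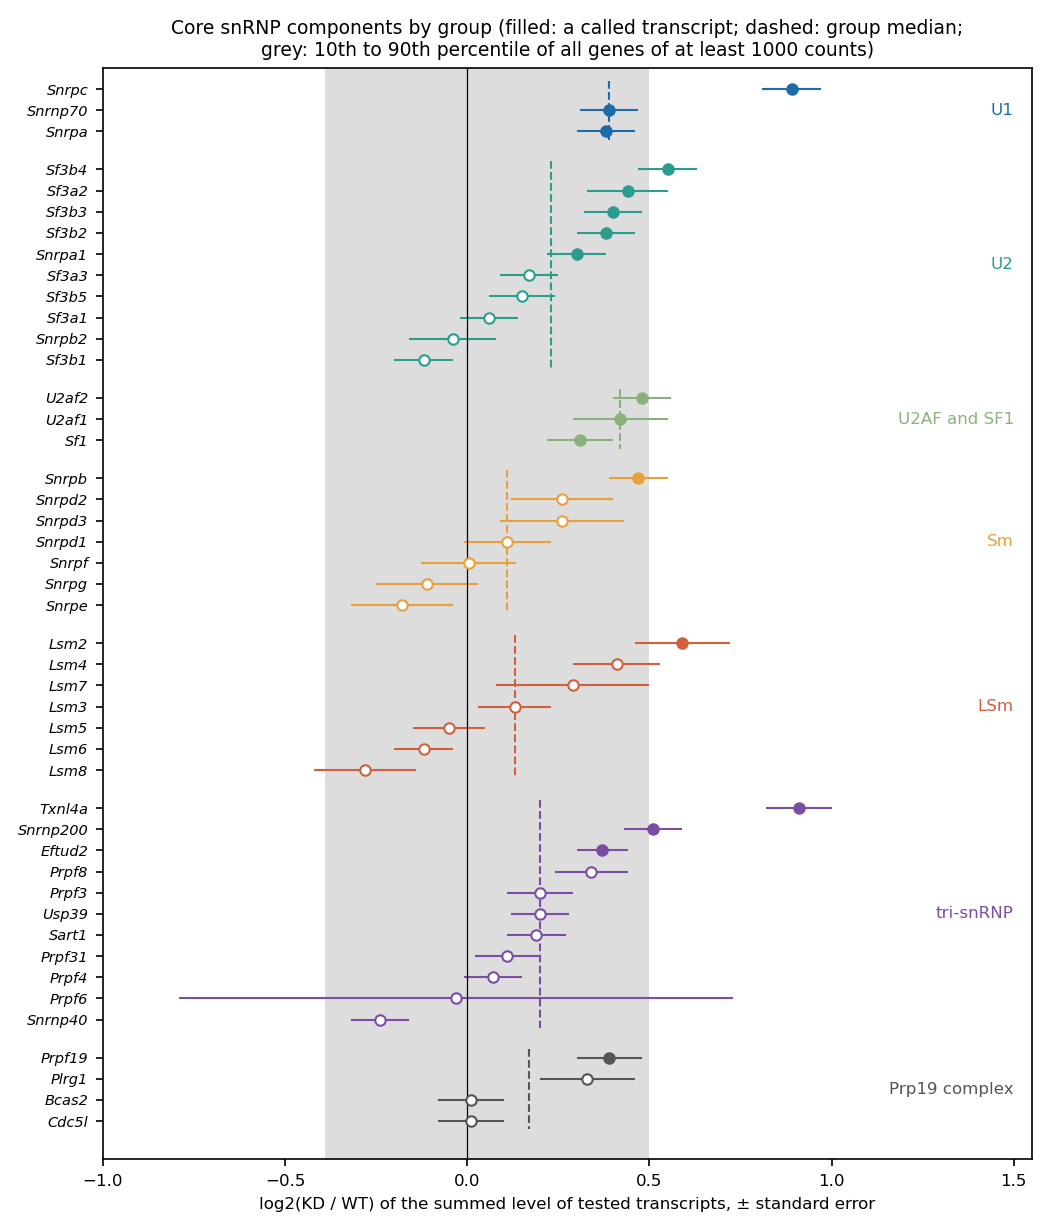
The horizontal axis is the log2(fold change) of KD over WT of the summed level of each gene, with 1 point for each of the 45 genes and bars of ± 1 SE. Filled points have a transcript called higher, dashed lines are group medians, and the grey band runs from −0.39 to 0.50, the 10th to 90th percentile of all genes with at least 1000 counts; U1 and U2AF with SF1 are filled throughout, while 1 of 7 Sm and 1 of 7 LSm genes are filled.

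Members of the U1 snRNP all rose. *Snrpc* codes for the U1 snRNP protein C, which stabilises the pairing of U1 with the 5′ splice site. Its main transcript ENSMUST00000071006.8, on chromosome 17 from 27840087 to 27851965, had a level of 5858 in KD against 3124 in WT, a 1.87-fold rise, with a log2(fold change) of 0.91 (SE 0.08, q = 0.0103). Its 3 minor transcripts, each under 3% of the gene's level in both groups, had log2(fold changes) of 0.38, 0.57 and 0.60, and none of them was called. Because 59.3% of the 31-base stretches of the main transcript are unique to the gene, with the rest shared with predicted genes such as *Gm2991*, part of its reads could be assigned elsewhere.

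*Snrnp70* codes for U1-70K, the protein that binds the first stem-loop of U1 RNA, and it had the highest level per kb of the U1 group. Its single tested transcript, on chromosome 7 from 45376453 to 45395742, had a level of 23527 in KD and 17903 in WT (log2(fold change) 0.39, SE 0.08, q = 0.0226). The libraries of the groups did not overlap. After centring on a trend with GC content the call was lost, with a log2(fold change) of 0.16 and an adjusted Wald p of 0.189.

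*Snrpa* codes for the U1 snRNP protein A, which binds the second stem-loop of U1 RNA, and its isoforms moved unequally. ENSMUST00000080356.9, which starts at 27196271 on chromosome 7, had a level of 2720.2 in KD and 1877 in WT (log2(fold change) 0.54, SE 0.14, q = 0.0458). ENSMUST00000122202.7, which starts at 27196245, had a level of 1797 in KD and 1219 in WT (log2(fold change) 0.56, SE 0.12, q = 0.0201). ENSMUST00000163311.8, which starts at the inner site at 27195760, had a level of 1201 in KD and 1297 in WT (log2(fold change) −0.11, SE 0.16, q = 0.393), and its libraries overlapped. The outer isoforms made up 42.7% and 27.8% of the summed level in WT and 47.6% and 31.4% in KD, and the inner isoform the rest. All of them have the same coding length of 861 bases. In the order named, 49.2%, 48.2% and 51.9% of their 31-base stretches are unique to the gene. The difference between isoforms was not tested, since their covariance is not in the table.

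In the U2 snRNP, 5 of 10 genes had a transcript called higher. The summed levels were above 0 in 8 of 10 genes, with a median of 0.23. The calls were found in *Snrpa1* and in subunits of both SF3A and SF3B. *Sf3b4*, an SF3B subunit that contacts the RNA upstream of the branch point, had the largest rise of the summed level, at 6862 in KD and 4688 in WT (log2(fold change) 0.55, SE 0.08, q = 0.0160). Of its 31-base stretches, 42.1% are unique to the gene and most others are shared with *Gm7935*.

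*Sf3b3* had a level of 15627 in KD and 11880.0 in WT (log2(fold change) 0.40, SE 0.08, q = 0.0300). *Sf3b2*, with the highest level per kb of the U2 group, had 21541 in KD and 16565 in WT (log2(fold change) 0.38, SE 0.08, q = 0.0216). *Snrpa1*, which codes for the U2 snRNP protein A′, had 3412 in KD and 2778 in WT, the smallest of the called rises among members (log2(fold change) 0.30, SE 0.08, q = 0.0448). In each of these genes the KD libraries lay above the WT libraries.

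*Sf3a2* codes for SF3A subunit 2, and its longer transcript was the called transcript closest to the threshold. ENSMUST00000148665.7, with 485 codons, had a level of 2767 in KD and 1858 in WT (log2(fold change) 0.57, SE 0.16, q = 0.0497). ENSMUST00000151928.7, with 194 codons, had 1183 in KD and 1056 in WT (log2(fold change) 0.16, SE 0.13, q = 0.132). The longer transcript made up 63.8% of the gene's level in WT and 70.1% in KD. On the other side of the threshold, the nearest member transcript was a minor one of *Lsm7* with a q-value of 0.0543.

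The other 5 genes of the U2 group were not called. *Sf3b1*, the largest SF3B subunit, which holds the branch point helix, had 15731 in KD and 17037 in WT (log2(fold change) −0.12, SE 0.08, q = 0.0717), the lowest value of the group, although its libraries did not overlap. It was called lower when q-values were recalculated at 100 counts (q = 0.0424) and was at 0.02 with GC centring. *Snrpb2*, which codes for the U2 snRNP protein B″ and is a close relative of *Snrpa*, had 6287 in KD and 6459.7 in WT (log2(fold change) −0.04, SE 0.12, q = 0.339). *Sf3a1*, *Sf3a3* and *Sf3b5* had log2(fold changes) of 0.06, 0.17 and 0.15.

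The factors that recognise the branch point and the 3′ splice site before U2 all had a called transcript in the likelihood ratio test. *U2af2* codes for the large U2AF subunit, which binds the polypyrimidine tract. Its main transcript ENSMUST00000005041.14, on chromosome 7 from 5062143 to 5079938, had a level of 13100.4 in KD and 9522 in WT (log2(fold change) 0.46, SE 0.08, q = 0.0156). *Sf1*, the branch point binding protein, had a called transcript ENSMUST00000113487.7 at 9021 in KD and 7106 in WT (log2(fold change) 0.34, SE 0.08, q = 0.0377), and its other 3 transcripts, at 0.20 to 0.38, were not called. The *Sf1* call was lost with GC centring (log2(fold change) 0.19, Wald q = 0.127) and in limma's moderated test (adjusted p = 0.0708).

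The exons of *U2af1* printed above differ between an isoform that rose and one that was not called. The 2 transcripts also differ in their annotated start, at 31658769 for ENSMUST00000166526 and 31658892 for ENSMUST00000014684. Reads over the start can therefore separate them too, and the difference cannot be tied to the exons alone. Starts and exons were read from ENSMUST00000166526.8 and ENSMUST00000014684.5, later versions than those tested. ENSMUST00000166526.7 had a level of 3609 in KD against 2045 in WT, a 1.76-fold rise (log2(fold change) 0.82, 95% confidence interval 0.62 to 1.01, q = 0.0134). ENSMUST00000014684.4 had 7583 in KD and 6303 in WT (log2(fold change) 0.27, 95% confidence interval −0.08 to 0.61, q = 0.251). The libraries of the groups did not overlap for either isoform, and the spread within groups was 0.10 for the first and 0.17 for the second on the log2 scale. The share of ENSMUST00000166526.7 was 24.5% in WT and 32.2% in KD, so the isoform that was the less abundant of the pair remained so. Of the 31-base stretches of the 2 transcripts, 34.3% and 36.1% are unique to the gene, with many of the others shared with *Gm10232*, and the difference between isoforms was not tested. The plot of the isoforms sets *U2af1* beside *Snrpa* and *Sf3a2*.

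**Figure D2:**
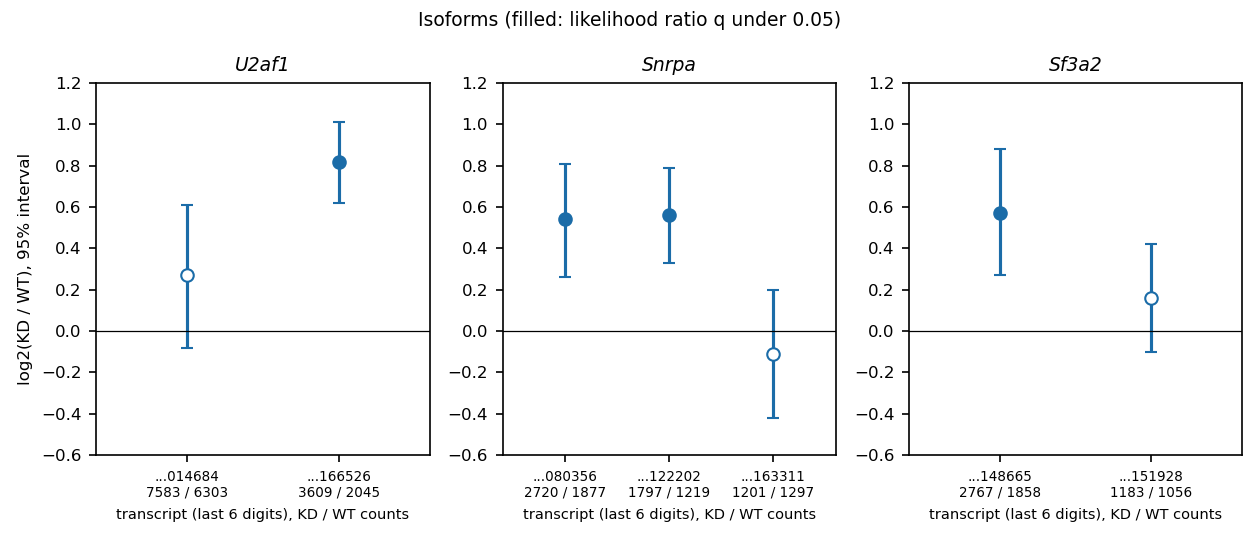
The vertical axis is the log2(fold change) of KD over WT of each tested transcript of *U2af1*, *Snrpa* and *Sf3a2* with its 95% confidence interval, and the group levels in normalised estimated counts stand under each point. Filled points had a q-value under 0.05; in each gene at least 1 transcript is filled and 1 is not, and the intervals of the open points include 0.

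The Sm and LSm rings, with 14 genes and 29 transcripts, held 2 genes with a transcript called higher, *Snrpb* and *Lsm2*. That is 14.3% of the genes, against 23.4% of genes with at least 1000 counts. The summed levels of the rings had a median log2(fold change) of 0.11 in the Sm group and 0.13 in the LSm group, with 5 of 14 genes below 0. *Snrpb*, which codes for SmB, had a level of 11345 in KD and 8177 in WT (log2(fold change) 0.47, SE 0.08, q = 0.0166), and its libraries did not overlap. *Lsm2* had a called transcript ENSMUST00000114011.10 at 2007 in KD and 1318 in WT (log2(fold change) 0.61, SE 0.14, q = 0.0359), and its other 2 transcripts, at 0.62 and 0.24, were not called.

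The other Sm genes were not called. *Snrpd2* and *Snrpd3* both had a log2(fold change) of 0.26 on the summed level, *Snrpd1* 0.11 and *Snrpf* 0.0035. *Snrpe* had the highest level per kb of all 45 members, at 19588 in KD and 22166 in WT, and was the lowest of the Sm group in its difference, at −0.18 (SE 0.14 on the summed level). *Snrpg* had a level of 5588 in KD and 6011 in WT (log2(fold change) −0.11, SE 0.14, q = 0.434). Of the 13 Sm transcripts, 9 had overlapping libraries by the bound and 2 did not overlap, which were those of *Snrpb* and *Snrpd2*. For *Snrpf* 7.94% of the 31-base stretches are unique to the gene on either strand, with most others shared with *Ccdc38*, and whether the counting used strand is not given in the sources used here.

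The LSm genes spread on both sides of 0. *Lsm4* had a summed level of 4827 in KD and 3628 in WT (log2(fold change) 0.41, SE 0.12). Its combined q-value was 0.0341, while its main transcript was not called (q = 0.0586). *Lsm7* and *Lsm3* were at 0.29 and 0.13. *Lsm8*, the subunit that sets the nuclear LSm ring on U6 apart from the cytoplasmic ring, was the lowest of all members, with 3052 in KD and 3699 in WT (log2(fold change) −0.28, SE 0.14), and its main transcript was not called (q = 0.160). *Lsm5*, the LSm gene with the highest level per kb, and *Lsm6* were at −0.05 and −0.12. With GC centring the main transcript of *Lsm5*, which has the lowest GC content of the members (36.6%), was at 0.36 and was called higher (Wald q = 0.00430).

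In the tri-snRNP, 3 of 11 genes (27.3%) had a transcript called higher, near the 23.4% of genes with at least 1000 counts. All 3 code for U5 proteins, while the U5 genes *Prpf8*, *Prpf6* and *Snrnp40* were not called in the likelihood ratio test. The summed levels were above 0 in 9 of 11 genes, with a median of 0.20. *Txnl4a* codes for DIM1, a small thioredoxin-like U5 protein. Its single tested transcript ENSMUST00000145963.7 had a level of 3492 in KD against 1862 in WT, a 1.88-fold rise and the largest of the group (log2(fold change) 0.91, SE 0.09, q = 0.0106). *Snrnp200*, which codes for BRR2, the helicase that unwinds U4 from U6, had 11246 in KD and 7875 in WT (log2(fold change) 0.51, SE 0.08, q = 0.0153). *Eftud2*, the GTPase of U5, had a called transcript ENSMUST00000107060.7 at 8804 in KD and 6890.0 in WT (log2(fold change) 0.35, SE 0.08, q = 0.0274), and the highest level per kb of the group.

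*Prpf8* codes for the largest U5 protein, at the catalytic centre of the spliceosome. Its main transcript had a level of 17928 in KD and 15513 in WT (log2(fold change) 0.21, SE 0.08, q = 0.0806). The second, ENSMUST00000102510.7, had 2232 in KD and 445 in WT, a log2(fold change) of 2.32 that was not called (SE 1.00, q = 0.0931). It was called in limma's moderated test (adjusted p = 0.0162), which was computed from the spread between libraries without a separate term for read assignment. The uncertainty of read assignment of this isoform alone was 1.00 on the log2 scale, against 0.03 for the main one, so the reads did not fix the split between them. A similar uncertainty, 0.77, was found for the main transcript of *Prpf6*, at 3631 in KD and 3595 in WT.

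*Snrnp40*, which codes for the WD40 protein of U5, moved the other way. Its level was 3729 in KD and 4399 in WT (log2(fold change) −0.24, SE 0.08), and its libraries did not overlap. The likelihood ratio q-value was 0.0714 and the adjusted Wald p in the authors' table was 0.0230, so the call depends on the test. The U4/U6 proteins *Prpf3*, *Prpf4* and *Prpf31* had summed log2(fold changes) of 0.20, 0.07 and 0.11. *Sart1* and *Usp39*, which join the tri-snRNP to the spliceosome, were at 0.19 and 0.20, and none of these 5 genes had a called transcript.

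Of the Prp19 complex, 1 of 4 genes had a transcript called higher, where the share was 23.4% among genes with at least 1000 counts. The summed levels of all 4 genes were above 0. *Prpf19* codes for the ubiquitin ligase that gives the complex its name and had the highest level per kb of the group. Its main transcript, on chromosome 19 from 10895231 to 10905532, had a level of 15678 in KD and 11881 in WT (log2(fold change) 0.40, SE 0.09, q = 0.0349). This call, the only one of the group, was lost with GC centring (log2(fold change) 0.20, Wald q = 0.155) and in limma's moderated test (adjusted p = 0.0559). *Plrg1* was at 0.33 on the summed level and was not called. *Cdc5l*, at 4554 in KD and 4521 in WT, and *Bcas2*, at 5210.3 in KD and 5163 in WT, each had a log2(fold change) of 0.01 with an SE of 0.09.

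Per kb of transcript, the summed levels of the members ranged from 607 for *Sf3b5* to 20877 for *Snrpe*, as a mean of KD and WT. The median level per kb was 8173 in the Sm group, 6626 for U2AF and SF1, 6169 for U1, 4628 for LSm, 2830.1 for U2, 2793 for the Prp19 complex and 1387 for the tri-snRNP. The order of the groups by level is therefore not the order of their differences, as the plot of levels per kb shows: the Sm genes, with the highest median level, had the lowest median difference without GC centring, and with it the tri-snRNP was lowest.

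**Figure D3:**
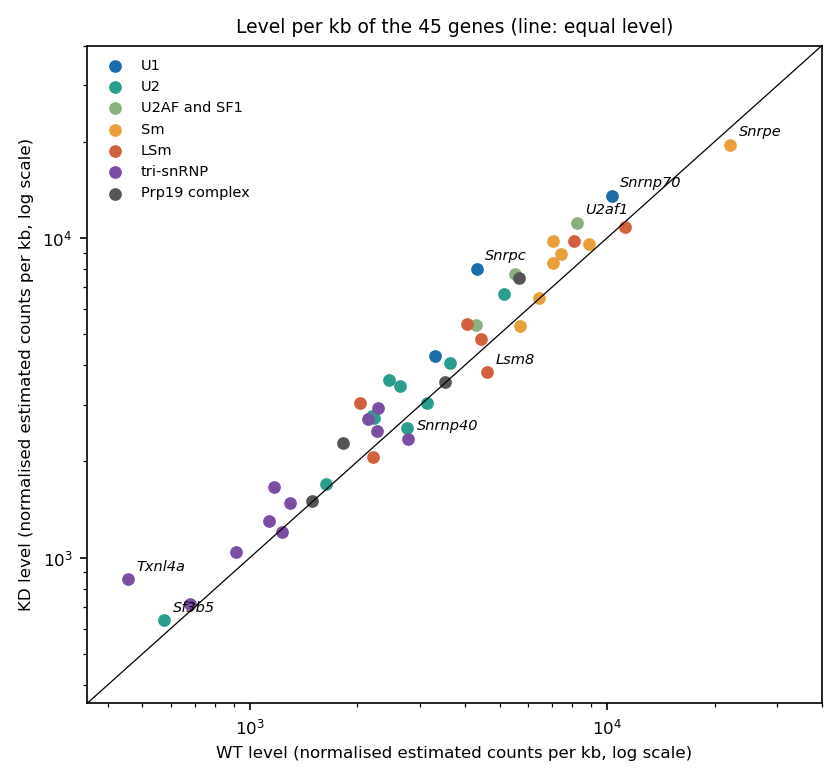
Both axes are the summed level of each of the 45 genes in normalised estimated counts per kb of transcript on a log scale, WT on the horizontal and KD on the vertical axis, coloured by group. The line marks equal levels; *Snrpc* and *Txnl4a* lie farthest above it, at 8015 against 4322 and at 856 against 457 counts per kb.

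GC content moved with the differences. Across the 45 genes the Spearman correlation of the log2(fold change) with the GC content of their transcripts was 0.76, and across the 18804 transcripts with at least 100 counts and a known sequence it was 0.34, given as descriptions since genes of the same libraries are not independent. With transcript length it was 0.07 across the members. The called transcripts had a median GC content of 54.3% and the others 50.6%, and by group the median was 56.0% for U1 and 55.0% for U2AF and SF1, against 46.4% for Sm and 49.8% for LSm.

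The group medians drew together once effects were taken relative to transcripts of similar GC content. They became 0.17 for U1, 0.21 for U2, 0.25 for U2AF and SF1, 0.15 for Sm, 0.15 for LSm, 0.12 for the tri-snRNP and 0.13 for the Prp19 complex, so the gap between U1 and the Sm and LSm groups depends on this setting. The median over all members was 0.17, and 38 of 45 genes (84.4%) were above 0, against 55.5% of genes with at least 1000 counts. Without GC centring 36 were above 0, and the genes were not all the same. *Snrpb2* (−0.04 to 0.21), *Sf3b1* (−0.12 to 0.02) and *Lsm5* (−0.05 to 0.35) crossed from below, and *Sf3a1* (0.06 to −0.01) from above. *Txnl4a*, *Snrpc* and the *U2af1* isoform ENSMUST00000166526.7 kept log2(fold changes) of 0.80, 0.74 and 0.69, with adjusted Wald p-values of 7.24e-18, 6.05e-18 and 2.18e-10. The part of GC content in the results was not tested.

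**Figure D4:**
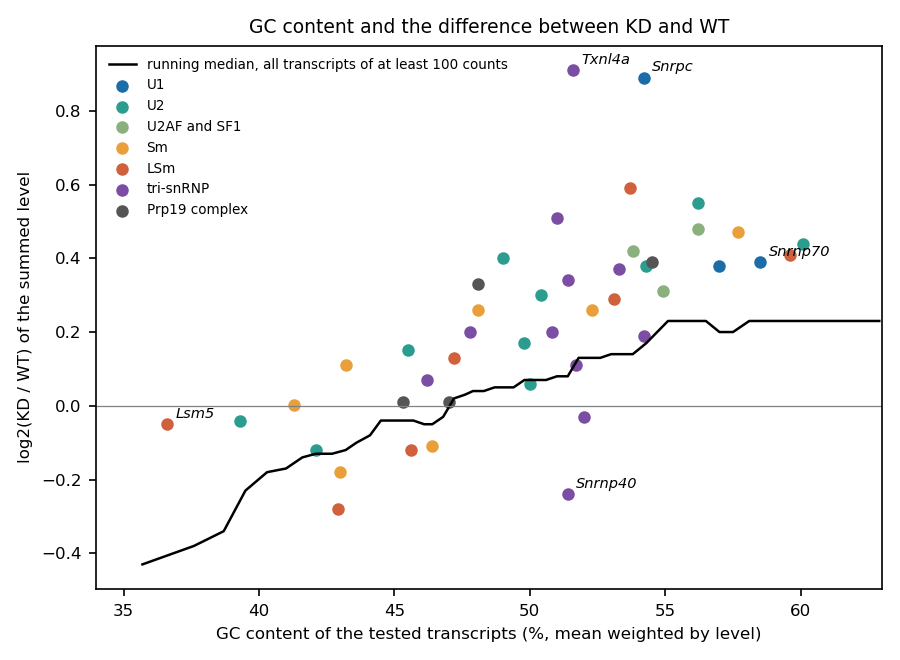
The horizontal axis is the GC content of a gene's tested transcripts in percent and the vertical axis is the log2(fold change) of KD over WT of its summed level, with 1 point for each of the 45 genes. The black line is the running median over all transcripts with at least 100 counts; both rise with GC content, and *Txnl4a* at 51.6% and *Snrpc* at 54.2% lie far above the line, while *Snrnp40* at 51.4% lies below it.

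The counts of calls depended on the test. By the Wald test 21 member transcripts were called, 20 higher and 1 lower, against 18.2% of all transcripts. limma's moderated test, computed from the deposited means and variances, called 13 member transcripts, all higher, against 9.68% of all, and shared 11 of them with the likelihood ratio test. It did not call those of *Snrpa1* (adjusted p = 0.0915), *Sf1* (0.0708), *Sf3a2* and *Snrpa* ENSMUST00000080356.9 (both 0.0602), *Prpf19* (0.0559), *Eftud2* ENSMUST00000107060.7 (0.0539) and *Sf3b3* (0.0526), and it added the second isoforms of *Prpf8* and *Eftud2* (0.0162 and 0.0443). With only transcripts of at least 100 counts and recalculated q-values, 28 of 69 were called, 26 higher and 2 lower, against 34.2% of all at that level. With effects centred on their median 21 were called by the Wald test, against 17.9% of all, and with effects centred on GC content 14 were called, 13 higher and 1 lower, against 15.3% of all. The share of member transcripts called was above that of all transcripts under each of these settings, which takes no account of their level, and the margin was smallest, 17.7% against 15.3%, after GC centring.

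Other genes of the spliceosome were read from 4 lists with 93 tested genes. Of these, 23 (24.7%) had a transcript called higher, against 10.1% of all genes and 23.4% of genes with at least 1000 counts, so the share was near that of genes at this level. A transcript was called lower in 3 of them (3.23%), and the summed levels had a median of 0.19 on the log2 scale. Among 17 genes of snRNP assembly, 5 were higher and 0 lower, led by *Clns1a*, which codes for pICln, the chaperone of Sm proteins, at 5001 in KD and 3399 in WT (log2(fold change) 0.56, SE 0.08, q = 0.0137). *Smn1*, the core of the SMN complex that loads Sm rings, had 2037 in KD and 1525 in WT (log2(fold change) 0.42, SE 0.11, q = 0.0492). Among 10 genes of the minor spliceosome, 2 were higher and 0 lower, led by *Snrnp35*, a protein of the U11/U12 snRNP, at 688 in KD and 454 in WT (log2(fold change) 0.60, SE 0.15, q = 0.0263).

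Among 29 other snRNP-associated genes, 6 (20.7%) were higher and 2 (6.90%) lower. *Rbm42* had the largest rise, with 1195 in KD and 726 in WT (log2(fold change) 0.72, SE 0.18, q = 0.0422). *Prpf4b*, a kinase of the spliceosome, had the largest fall, with 6991 in KD and 10649.6 in WT (log2(fold change) −0.61, SE 0.08, q = 0.0146). Among 37 genes of the activation and catalytic steps, 10 (27.0%) were higher and 1 (2.70%) lower. In both lists the share called higher was near the 23.4% of genes with at least 1000 counts. *Cactin* had the largest rise, with 4580.4 in KD and 2855 in WT (log2(fold change) 0.68, SE 0.08, q = 0.0112), and both tested transcripts of *Magohb*, a subunit of the exon junction complex, fell, by 0.67 and 0.42 on the log2 scale (q = 0.0329 and 0.0325).

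The tested transcripts cover only part of the annotated isoforms of the members. The GENCODE M21 annotation lists 101 retained-intron, 22 nonsense-mediated decay, 34 processed and 25 protein-coding transcripts of the members that were not tested here. All 79 tested transcripts are annotated as protein-coding. The untested transcripts were not measured here.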

How the data were processed

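RNA-seq of 2 KD and 2 WT samples was analysed from the tables of the comparison. Members, groups and gene lists were chosen with earlier results of these data known. The authors trimmed adapters with BBDuk, estimated reads per transcript with Kallisto and compared KD with WT in Sleuth. bcl2fastq 2.17, HISAT2, sleuth and GRCm38 are named in the submitters' processing notes, and the transcriptome index and the filter on low counts are not given in the sources used here. The deposited effects, means and variances are on the natural log scale of normalised estimated counts plus 0.5, and the deposited p-values and q-values are the authors' likelihood ratio and Wald tests with Benjamini-Hochberg adjustment over 34200 transcripts. These comparison columns were used because no values of single libraries were used here. The sign of the effect was read from *Setd2*.

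Division by the natural log of 2 gave log2 values. Levels were the exponential of the mean plus or minus 0.5 times the effect, minus 0.5, added up for each gene, and per kb after division by transcript length. The sum of squares within groups was 3 times the variance over the 4 libraries minus the squared effect, which differed from the deposited variance terms by at most 2.1e-13. Libraries cannot overlap where the effect exceeds the root of that sum. limma 3.58.1 (moderated test with a trend on the mean) used the same terms and was tested on simulated data. GC centring took medians over 50 classes of GC content, smoothed over 5 classes. Positions and sequences came from GENCODE M21 (GRCm38), matched by identifier without version for 34192 transcripts, with the same version for 75 of the 79 members. The version differed for both transcripts of *U2af1* and for those of *Txnl4a* and *Sf3b2*. 0 columns of single samples were left out. Named were *Setd2*, members with a called transcript, the genes of each group with the highest level per kb, the largest rise and the largest fall, members with isoforms of at least 10% moving in opposite directions, and in each other list the called genes with the largest rise and fall. *Smn1*, and uncalled members beyond this rule, were chosen after their values were seen.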

Additional observations from a re-analysis of the deposited data

How the results depend on the processing

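No paired analysis was possible because the columns carry no values of single libraries, and leaving out each replicate in turn was not run for the same reason. With 2 samples a group, the spread of each transcript rests on few values, and depth is unknown. The count of called member transcripts, 18, was 28 when only transcripts of at least 100 counts were kept and q-values recalculated, in part because fewer transcripts were tested. The number of member transcripts called lower, 0, was 1 by the Wald test, 1 with median centring, 1 with GC centring and 2 at 100 counts, and the number of genes with a lower transcript was 1 by the Wald test and 2 at 100 counts. The median log2(fold change) of U1, 0.39, was 0.54 with the highest transcript only and 0.17 with GC centring, and that of U2AF and SF1, 0.42, was 0.25 with GC centring; the cause was not tested. Among 26 member transcripts followed one by one, the sign of *Sf3b1* (0.02) and of *Lsm5* (0.36, then called higher) turned with GC centring. That of *Cdc5l* (−0.04) turned with median centring. Outside these 26, transcripts whose sign turned with GC centring included *Snrpb2* (−0.04 to 0.21) and *Sf3a1* (0.06 to −0.01). Of the 26 member transcripts followed one by one, 6 lost their call with GC centring, *Snrnp70*, *Sf3b2*, *Sf1*, *Prpf19*, *Sf3a2* and 1 of *Snrpa*, and 7 lost it in limma's moderated test, *Snrpa1*, *Sf1*, *Sf3a2*, *Prpf19*, *Eftud2*, *Sf3b3* and 1 of *Snrpa*.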
